A study of Mus musculus with 30 samples.

Results

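Collagen chains are the proteins that wind around each other, in sets of 3, to form the collagens of the extracellular matrix. The count files held 44 genes whose symbol was Col, a type number, the letter a and a chain number, out of 56941 genes, and all 44 were protein coding. By the class of collagen they build, 11 were chains of fibrillar collagens (types 1, 2, 3, 5, 11, 24 and 27), 6 were chains of type 4, the collagen of basement membranes, and 27 belonged to other types. RNA came from mHypoA-2/12, an immortalized line from adult mouse hypothalamus that was plated with serum and then moved to DMEM with GlutaMAX for treatment. Cells received vehicle (0.1% DMSO) or cannabidiol (CBD), a compound of the cannabis plant, at 4 doses (3, 1.5, 0.75 and 0.325 µM), and were collected after 6 h or 24 h. Each of the 10 groups had 3 libraries, 30 in all, made with a kit that reads the 3′ ends of transcripts. All cells were of 1 line, all groups carried DMSO, and no group was collected before treatment, so that hours of treatment and hours in that medium cannot be told apart.

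Fibrillar chains assemble into the ropes that carry tension in connective tissue, with type 1 and type 3 as the bulk and types 5 and 11 setting the width of the fibril. Type 4 chains form the sheet under epithelia and around vessels, while types 6, 8, 12, 15, 16 and 18 link fibrils, sheets and cells. In the brain, collagen is made mainly by cells of the meninges and of vessel walls, and much less by neurons.

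The listed markers gave no single cell type. Of the 12 neuron markers, Tubb3, a neuronal tubulin, was at 49.1 CPM (reads of the gene per 1000000 reads on genes, with TMM scaling), the neurofilaments Nefm and Nefl at 40.5 and 16.4 CPM and Map2 at 23.2 CPM, while Rbfox3, which encodes NeuN, was at 0.59 CPM and the synaptic gene Snap25 had reads in 2 libraries. The 13 genes listed for mesenchyme and mural cells all had reads, from 1.31 CPM for Fap, 4.16 CPM for Des and 30.1 CPM for Pdgfra to 2111 CPM for the smooth muscle actin Acta2, 2198 CPM for Vim and 3198 CPM for S100a4. The other lists were mixed too. Among endothelial genes Flt1 was at 75.6 CPM and Cldn5 at 0 reads, among astrocyte genes Gja1 was at 43.1 CPM and Aqp4 at 0 reads, and among oligodendrocyte genes Cnp was at 19.4 CPM and Olig2 and Sox10 at 0 reads. Of the microglia genes, Tmem119 was at 242 CPM and Cx3cr1 at 14.5 CPM, and C1qa had 0 reads. A count of 0 reads allows up to 0.0356 CPM (3 reads over all libraries, counting error only). The cells are called by the name of the line. In RNA from a bulk culture, fewer cells of a type and less RNA per cell cannot be told apart.

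Reads on genes ranged from 1839621 to 4420675 per library, and 17.7% to 22.2% of reads lay outside genes. Of the 44 chains, 24 passed the filter on low counts at 6 h, 25 at 24 h and 25 in the joint analysis of both times. These 25 were 9 fibrillar chains, all 6 type 4 chains and 10 others, and Col4a3 was the chain that passed at 24 h but not at 6 h. Since the kit makes 1 fragment per transcript, CPM was not divided by gene length, and levels of different chains are compared on that scale.

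Collagen RNA was plentiful and was led by type 1. Together the chains took 0.609% to 0.821% of all gene reads at 6 h (median 0.679%) and 0.635% to 0.831% at 24 h (median 0.733%). Fibrillar chains made up 0.400% to 0.551% at 6 h and 0.456% to 0.564% at 24 h. Type 4 chains held 0.0840% to 0.140% at 6 h and 0.0650% to 0.118% at 24 h, and the other chains 0.107% to 0.138% and 0.0993% to 0.167%. In all 3 classes the ranges of the 6 h and 24 h libraries overlapped.

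Among the fibrillar chains, Col1a1 had a mean of 2053 CPM over 30 libraries and ranked 35 among all genes. Its partner Col1a2 was at 1580 CPM and ranked 47. Col3a1, the single chain of type 3, was at 428 CPM, and the type 5 chains Col5a1 and Col5a2 were at 337 and 272 CPM. These are the chains of the common fibrils of skin, tendon and vessel walls. Further down, Col11a1, which encodes a chain of the thin fibrils of cartilage, was at 114 CPM, and Col5a3 at 44.6 CPM. The cartilage chain Col2a1 (3.23 CPM) and Col27a1 (2.98 CPM) barely passed the filter, and Col11a2 and Col24a1 did not, with 26 and 14 reads in all.

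The type 4 chains fell into pairs of like level that also lie head to head in the genome (GRCm38). Col4a1 (597 CPM) and Col4a2 (386 CPM), the pair found in nearly every basement membrane, start 21 bases apart on chromosome 8 and run in opposite directions. Col4a6 (30.9 CPM) and Col4a5 (16 CPM) start 1343 bases apart on chromosome X. Col4a4 (5.05 CPM) and Col4a3 (2.78 CPM), whose products are best known from the kidney filter, leave 71 bases between them on chromosome 1. The last 1000 bases of Col4a3 overlap an exon of C430014B12Rik on the opposite strand, and with the strand setting of the counting not given in the sources used here, reads of these genes cannot be told apart.

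Among the other chains, Col8a1, a short chain of endothelial and corneal matrix, was highest at 449 CPM, and its partner Col8a2 was at 47.1 CPM. The type 6 chains Col6a2, Col6a3 and Col6a1, which build beaded filaments around cells, were at 227, 157 and 113 CPM. Col16a1, which binds to the surface of fibrils, was at 186 CPM, and Col12a1, which does likewise, was at 98.1 CPM. Col18a1 (21.8 CPM), the source of endostatin, Col7a1 (16.4 CPM), which anchors the epidermis, and Col15a1 (3.54 CPM), a collagen beside basement membranes, were low.

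The 19 chains that passed no filter were Col11a2, Col24a1, Col6a4, Col6a5, Col6a6, Col9a1, Col9a2, Col9a3, Col10a1, Col13a1, Col14a1, Col17a1, Col19a1, Col20a1, Col22a1, Col23a1, Col25a1, Col26a1 and Col28a1. The highest of them, Col10a1 of growth plate cartilage, had a mean of 0.966 CPM. Col9a1 and Col26a1 had 0 reads in 30 libraries. Several of these are made mainly in cartilage or epithelium, and their levels were too low for a change to be detectable at this depth.

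**Figure D1:**
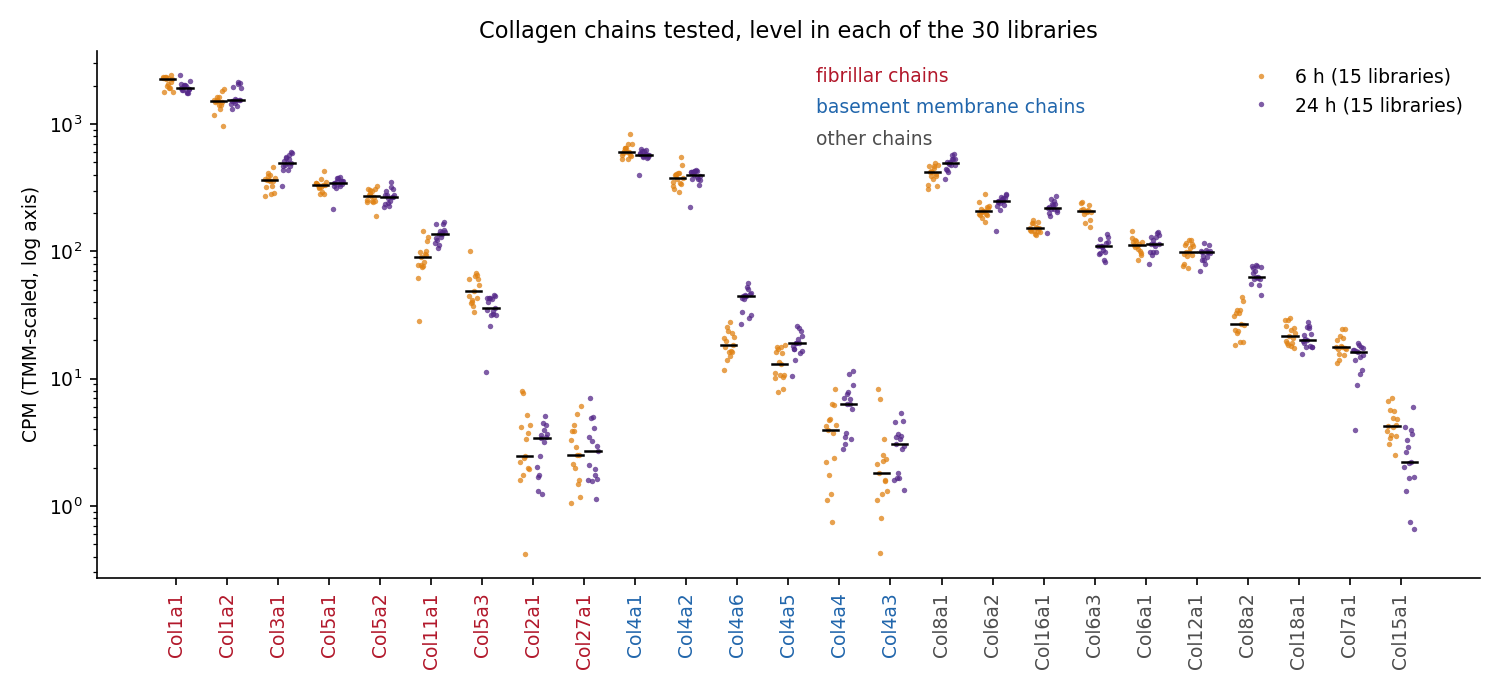
Level of the 25 chains tested in each of the 30 libraries, in CPM on a log axis, with 6 h libraries in orange, 24 h libraries in purple and lines at the median of the 15 libraries of each time. Col1a1 and Col1a2 stand highest among the fibrillar chains, Col4a1 and Col4a2 among the type 4 chains and Col8a1 among the others, and the 24 h points of Col8a2 lie above and those of Col6a3 below all of their 6 h points.

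The spread within groups followed the level. The median coefficient of variation over the 10 groups was 6.94% for Col4a1, 7.22% for Col16a1, 7.30% for Col4a2 and 8.19% for Col1a1. It was 48.0% for Col4a4, 44.1% for Col4a3 and 41.2% for Col2a1, each with few reads per library. The exception among abundant chains was Col1a2, at 14.6%, which ranged from 973 CPM in replicate 2 of 0.325 µM at 6 h to 2141 CPM in replicate 1 of 0.325 µM at 24 h.

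Some libraries differed from the others of their group in many chains. Replicate 1 of 3 µM at 24 h was the lowest of its group in 19 of 25 chains. It had 395 CPM of Col4a1 against 583 and 593 in the other libraries of that group, 222 CPM of Col4a2 against 421 and 422, and 215 CPM of Col5a1 against 324 and 342. Col1a1 went the other way, with 2418 CPM against 1913 and 2056. By count of chains other libraries came close. Replicate 1 of 0.75 µM at 6 h was the lowest of its group in 17, and replicate 3 of 1.5 µM at 6 h the highest in 16. At 6 h, replicate 3 of vehicle was the highest of its group in 12 chains and the lowest in 9, with 101 CPM of Col5a3 against 60.3 and 44.6. Where a call or a median below turned on replicate 1 of 3 µM at 24 h or replicate 3 of vehicle at 6 h, the value without that library is given.

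Most of the chains called differed over time, and among the fibrillar chains and the others the change ran both ways. With vehicle alone, 11 of 25 chains differed between 24 h and 6 h at an FDR below 0.1 (edgeR quasi-likelihood test, Benjamini-Hochberg adjustment over all genes), 9 of them higher and 2 lower at 24 h. Over all genes tested in this comparison, 26.7% were called, 12.5% higher and 14.2% lower. The median log2 fold change was 0.15 over the chains and −0.03 over all genes. By class, 3 fibrillar chains were higher and 1 lower, 2 type 4 chains were higher and 0 lower, and 4 others were higher and 1 lower. The count was 9 without replicate 3 of vehicle at 6 h.

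Averaged over vehicle and the 4 doses with equal weight, 15 libraries against 15, 16 of 25 chains were called, 10 higher and 6 lower at 24 h. In this larger comparison 58.9% of all genes were called, 28.4% higher and 30.5% lower, so that the share of chains was near that of all genes. Fibrillar chains gave 3 higher and 2 lower of 9, type 4 chains 3 higher and 1 lower of 6, and the others 4 higher and 3 lower of 10. The median log2 fold change over the 25 chains was 0.03. Without replicate 1 of 3 µM at 24 h, 15 chains were called. The summed level of the 13 mesenchyme and mural markers, all with reads, was 8278 to 9724 CPM at 6 h and 6584 to 7768 CPM at 24 h, with 6 of them higher and 6 lower at 24 h, and its part in these results was not tested. Sums of endothelial markers were 65.6 to 178 CPM at 6 h and 26.9 to 65.9 CPM at 24 h, nearly all of it Flt1, while Cldn5 was at 0 and Cdh5 at 0.03 CPM. Those of oligodendrocyte markers were 9.11 to 20.5 CPM at 6 h and 20.9 to 37.1 CPM at 24 h, and those of astrocyte markers 64.0 to 104 CPM and 38.7 to 70.6 CPM. Neuron markers summed to 134 to 195 CPM and 117 to 187 CPM, and microglia markers to 154 to 367 CPM and 224 to 346 CPM. The part of these lists in the change of the chains was not tested either.

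**Figure D2:**
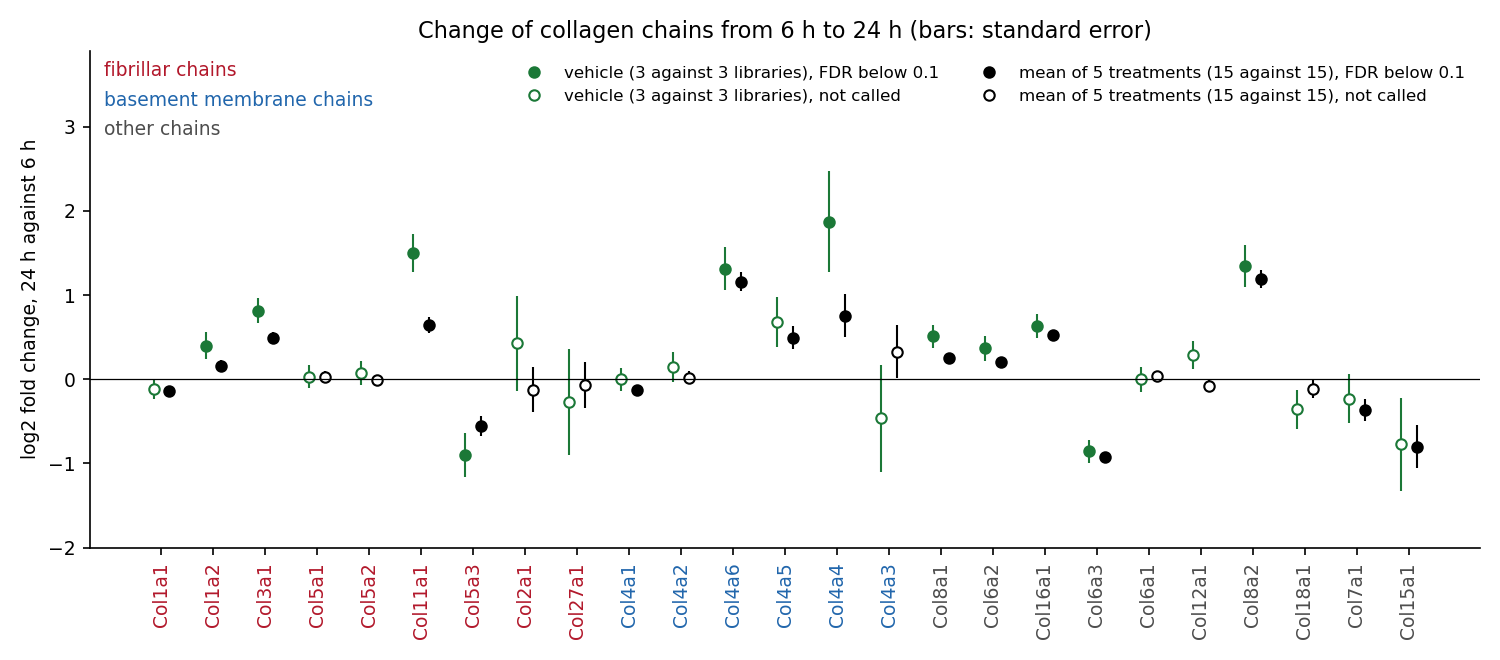
Log2 fold change of 24 h against 6 h for the 25 chains tested, with vehicle alone in green (3 against 3 libraries) and the mean over vehicle and the 4 doses in black (15 against 15), bars showing the standard error and filled points an FDR below 0.1. Col4a6, Col8a2, Col11a1, Col3a1 and Col16a1 lie above 0 and Col6a3 and Col5a3 below 0 in both comparisons, and Col4a4 has the widest error of the called chains.

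In type 4, Col4a6, Col4a5 and Col4a4 rose, while the scarcest chain, Col4a3, was not called. Col4a3 had 1.11, 2.12 and 8.29 CPM with vehicle at 6 h and 4.64, 2.97 and 1.34 CPM with vehicle at 24 h. Col4a6 (ENSMUSG00000031273, chromosome X, 141165403 to 141474076 on GRCm38) had 11.6, 20.7 and 17.7 CPM with vehicle at 6 h and 46.4, 31.7 and 47.2 CPM with vehicle at 24 h. All 3 libraries of 24 h were above all 3 of 6 h in this and in each of the other treatments. Its log2 fold change was 1.31 (SE 0.25, edgeR FDR = 0.000323) with vehicle and 1.16 (SE 0.11) over the 5 treatments. Its head-to-head neighbour Col4a5 had 11.1, 10.1 and 16.3 CPM with vehicle at 6 h and 23.6, 16.5 and 21.4 CPM at 24 h. That difference was called over the 5 treatments, with a log2 fold change of 0.49 (SE 0.13, edgeR FDR = 0.0024), and not with vehicle alone, where it was 0.68.

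Col4a4 went from 2.21, 4.25 and 1.10 CPM to 5.80, 8.91 and 11.4 CPM with vehicle, with no overlap (log2 fold change 1.87, SE 0.60, edgeR FDR = 0.0229). Over the 5 treatments its log2 fold change was 0.75, with 0.748 to 8.24 CPM at 6 h and 2.82 to 11.4 CPM at 24 h. These are few reads per library, and without replicate 3 of vehicle at 6 h the call with vehicle was lost (log2 fold change 1.41, FDR = 0.150). The pair that makes up most of type 4 was not called with vehicle, at log2 fold changes of 0.00 and 0.15. Col4a1 had 569, 531 and 596 CPM with vehicle at 6 h and 554, 570 and 573 CPM at 24 h, and Col4a2 had 352, 324 and 308 CPM at 6 h and 331, 367 and 393 CPM at 24 h. Over the 5 treatments Col4a1 passed the threshold at a log2 fold change of −0.12 (edgeR FDR = 0.0882), a call lost in 26 of 30 analyses that left out a library.

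Of the fibrillar chains, Col3a1 and Col11a1 rose and Col5a3 fell. Col3a1 (ENSMUSG00000026043, chromosome 1, 45311538 to 45349706) had 369, 272 and 320 CPM with vehicle at 6 h and 608, 498 and 587 CPM at 24 h, with no overlap. Its log2 fold change was 0.82 (SE 0.15, edgeR FDR = 0.000188) with vehicle and 0.49 (SE 0.07) over the 5 treatments. The 24 h level was 1.76 times the 6 h level with vehicle, 1.54, 1.38 and 1.39 times at 0.325, 0.75 and 1.5 µM, and 1.06 times at 3 µM, or 1.16 times without replicate 1 of 3 µM at 24 h.

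Col11a1 (ENSMUSG00000027966, chromosome 3, 114030540 to 114220718) had 77.4, 62.1 and 28.2 CPM with vehicle at 6 h and 146, 170 and 141 CPM at 24 h. Its log2 fold change with vehicle was 1.50 (SE 0.22, edgeR FDR = 1.26e-05), the largest of the fibrillar chains, and 0.64 (SE 0.10) over the 5 treatments. The ratio of 24 h to 6 h was 2.73 with vehicle and 1.15 to 1.52 at the 4 doses. How far the difference between these ratios goes beyond the spread was tested and is given with the effect of CBD.

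Col5a3, a minor chain of type 5, had 60.3, 44.6 and 101 CPM with vehicle at 6 h and 44.5, 36.0 and 31.5 CPM at 24 h. The lowest library of 6 h (44.6 CPM) and the highest of 24 h (44.5 CPM) nearly touched, and the log2 fold change was −0.90 (SE 0.26, edgeR FDR = 0.0126). Without replicate 3 of vehicle at 6 h it was −0.46 (FDR = 0.275), and over the 5 treatments −0.55 (SE 0.12). The type 1 chains moved apart by a small amount. Col1a1 had 2339, 2314 and 1795 CPM with vehicle at 6 h and 1870, 1901 and 2186 CPM at 24 h, and over the 5 treatments its log2 fold change was −0.14 (SE 0.05, edgeR FDR = 0.0256). Col1a2 had 1554, 1183 and 1502 CPM with vehicle at 6 h and 2100, 1558 and 1936 CPM at 24 h, with log2 fold changes of 0.40 with vehicle (SE 0.16, edgeR FDR = 0.0762) and 0.15 over the 5 treatments (edgeR FDR = 0.0703). The vehicle call was lost without replicate 2 of vehicle at 6 h (FDR = 0.278), replicate 1 or replicate 3 of vehicle at 24 h (FDR = 0.251 and 0.158), or with the vehicle libraries alone (FDR = 0.101). The type 5 chains Col5a1 and Col5a2 were not called, with log2 fold changes of 0.03 and −0.01 over the 5 treatments.

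In the remaining class the partners of types 6 and 8 parted. Col6a3 (ENSMUSG00000048126, chromosome 1, 90765923 to 90843971) had 238, 212 and 244 CPM with vehicle at 6 h and 136, 118 and 129 CPM at 24 h. Over the 15 libraries of each time it ran from 156 to 244 CPM (median 206) at 6 h and from 82.6 to 136 CPM (median 110) at 24 h, with no overlap. Its log2 fold change was −0.86 (SE 0.14, edgeR FDR = 2.78e-05) with vehicle and −0.92 (SE 0.06, edgeR FDR = 6e-15) over the 5 treatments, and the ratio of 24 h to 6 h stayed between 0.457 and 0.553 in every treatment. Its partner Col6a2 moved the other way, from 246, 197 and 193 CPM to 261, 277 and 283 CPM with vehicle (log2 fold change 0.37, SE 0.15, edgeR FDR = 0.0762). That call was lost when the percentage of reads outside genes entered the fit (FDR = 0.252). The third chain of type 6, Col6a1, was not called, with 145, 128 and 118 CPM at 6 h and 142, 113 and 133 CPM at 24 h.

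Col8a2 (ENSMUSG00000056174, chromosome 4, 126286793 to 126314330) had 31.0, 23.9 and 18.2 CPM with vehicle at 6 h and 61.0, 45.5 and 74.7 CPM at 24 h. Its 15 libraries of 6 h ran from 18.2 to 43.6 CPM (median 26.7) and those of 24 h from 45.5 to 77.7 CPM (median 63.0), again with no overlap. The log2 fold change was 1.35 (SE 0.25, edgeR FDR = 0.000201) with vehicle and 1.19 (SE 0.11) over the 5 treatments. Col8a1 had 306, 334 and 465 CPM with vehicle at 6 h and 577, 531 and 473 CPM at 24 h, with no overlap and a smaller log2 fold change of 0.51 (SE 0.14, edgeR FDR = 0.0075). Col8a2 and Col6a3 were the chains whose 15 libraries of 24 h did not overlap the 15 of 6 h, 2 of 25, where 2.26% of all genes did not overlap, 1.58% higher and 0.68% lower at 24 h.

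Col16a1 (chromosome 4, 130047840 to 130099283) had 148, 153 and 144 CPM with vehicle at 6 h and 274, 204 and 212 CPM at 24 h, with log2 fold changes of 0.63 (SE 0.14, edgeR FDR = 0.00147) with vehicle and 0.53 (SE 0.06) over the 5 treatments. Its 24 h libraries lay above its 6 h libraries in 4 of 5 treatments, 3 µM being the exception. Col7a1 and Col15a1 were called over the 5 treatments alone, at log2 fold changes of −0.36 and −0.80. Col7a1 ran from 13.3 to 24.7 CPM (median 17.6) at 6 h and from 3.96 to 19.2 CPM (median 16.2) at 24 h, and Col15a1 from 2.49 to 7.01 CPM (median 4.25) and from 0.660 to 6.03 CPM (median 2.20), so that both overlapped. Col12a1 and Col18a1 were not called.

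**Figure D3:**
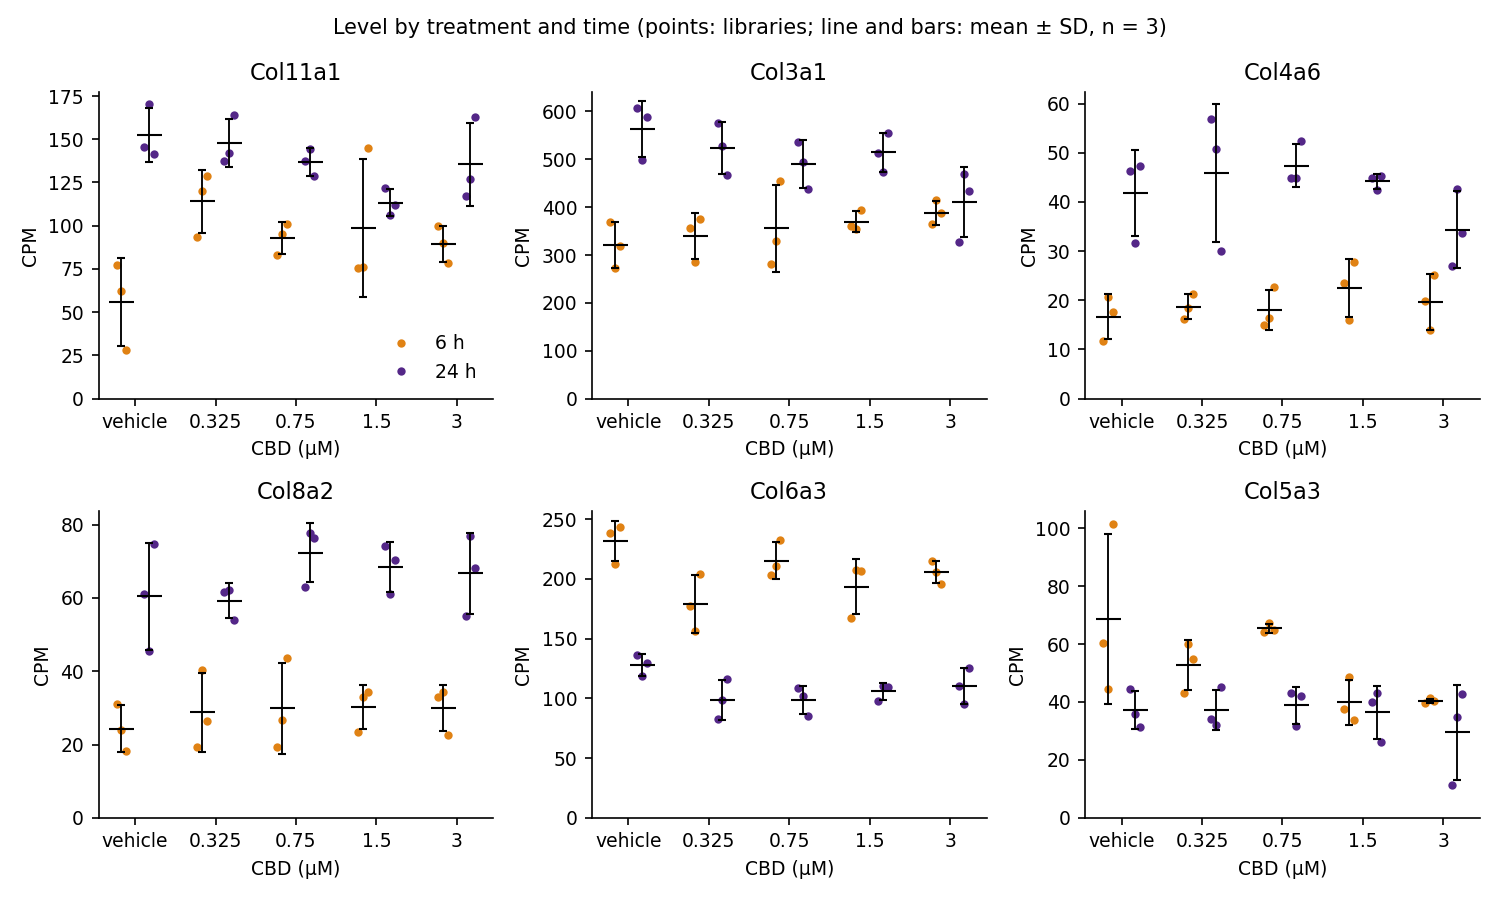
Levels of Col11a1, Col3a1, Col4a6, Col8a2, Col6a3 and Col5a3 in CPM by treatment, each point a library, with the mean and SD of 3 libraries, 6 h in orange and 24 h in purple. Col8a2 and Col4a6 are higher and Col6a3 lower at 24 h in all 5 treatments, while for Col3a1 at 3 µM 1 library of 24 h (328 CPM) lies below the 6 h libraries and the others (469 and 435 CPM) lie above them.

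The parting of partners shows best as a ratio within 1 library, which does not depend on how libraries are scaled. The ratio of Col6a3 to Col6a1 reads was 1.40 to 2.36 at 6 h (mean 1.85) and 0.750 to 1.39 at 24 h (mean 0.962), so that all 15 libraries of 24 h were below all 15 of 6 h. The margin was slight, with 1.389 in replicate 1 of 3 µM at 24 h and 1.395 in replicate 1 of 1.5 µM at 6 h. How many other pairs of genes separate in this way was not counted. For Col8a1 to Col8a2 it was 8.01 to 25.5 at 6 h (mean 15.5) and 5.82 to 11.7 at 24 h (mean 7.66), with overlap. By contrast, Col6a2 to Col6a1 was 1.54 to 2.69 at 6 h and 1.67 to 2.63 at 24 h. Col4a1 to Col4a2 was 1.18 to 1.94 and 1.31 to 1.77, and Col1a1 to Col1a2 was 0.958 to 2.33 and 0.829 to 1.67. Each of the last 3 ratios overlapped between the times. Such a ratio shows unequal change of partners and not which of them changed.

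**Figure D4:**
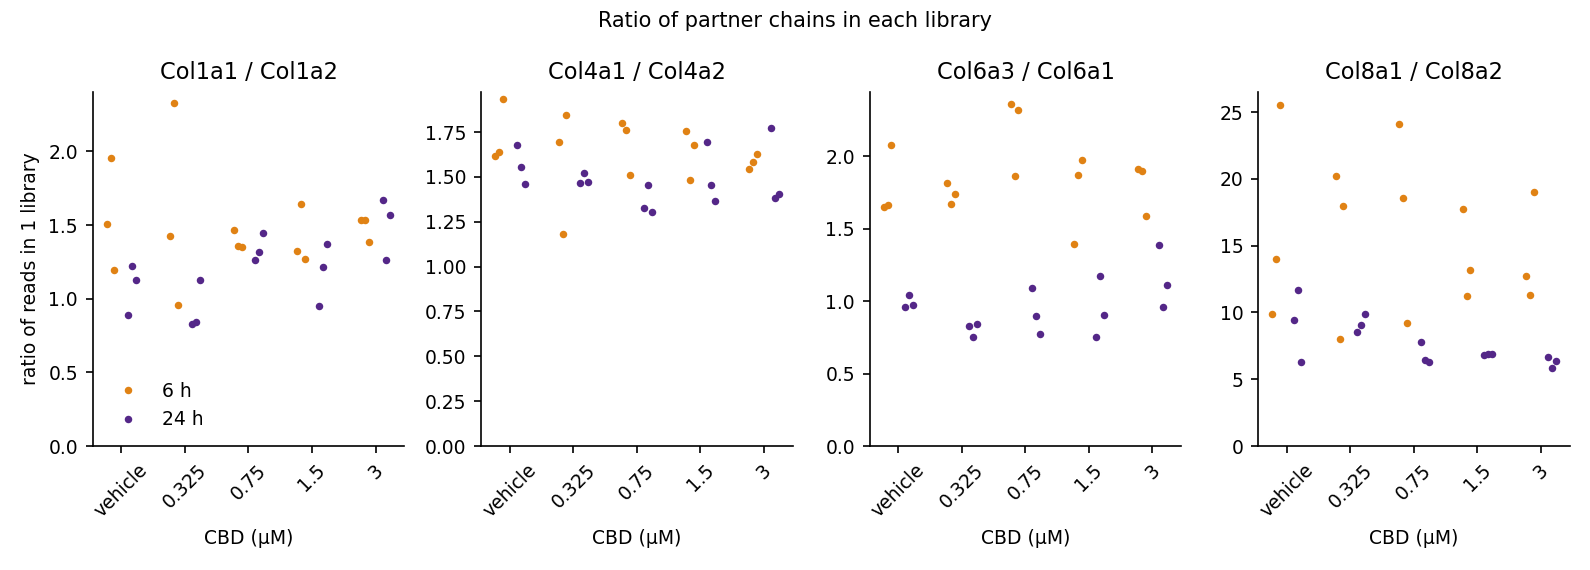
Ratio of the reads of partner chains in each library, by CBD dose, with 6 h in orange and 24 h in purple. Col6a3 to Col6a1 lies between 1.40 and 2.36 at 6 h and between 0.750 and 1.39 at 24 h, while the ratios of Col1a1 to Col1a2 and of Col4a1 to Col4a2 overlap between the times.

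Promoters were looked up for chains that moved in different directions. The RefSeq promoter table (GRCm38.p6) held 35 of the 44 chains and 20 of the 25 tested. In the 250 bases before the start site, on either strand, CCAAT was found in 9 of these 20 chains and in 34.5% of 27025 promoters. GGGCGG was found in 14 of 20 and in 32.9%, TATAAA in 1 of 20 and in 13%, and TGANTCA, the AP-1 motif, in 1 of 20 and in 6.87%. Overlap between motifs was allowed, and a match is a description of the sequence. The windows of Col11a1 and Col4a6, which rose, and Col6a3, which fell, are shown as examples from chains that changed, with no annotated exon in them. They are written 5′ to 3′ on the strand of the gene, with matches in capitals, for Col11a1 at chr3:114030290-114030539 (plus strand), for Col4a6 at chrX:141474077-141474326 (minus strand) and for Col6a3 at chr1:90843972-90844221 (minus strand).
Col11a1: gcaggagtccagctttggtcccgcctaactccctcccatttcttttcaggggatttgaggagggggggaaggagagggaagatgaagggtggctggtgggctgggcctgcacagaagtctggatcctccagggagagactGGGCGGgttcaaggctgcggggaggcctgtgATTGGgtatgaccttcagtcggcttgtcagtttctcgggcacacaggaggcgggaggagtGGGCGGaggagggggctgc
Col4a6: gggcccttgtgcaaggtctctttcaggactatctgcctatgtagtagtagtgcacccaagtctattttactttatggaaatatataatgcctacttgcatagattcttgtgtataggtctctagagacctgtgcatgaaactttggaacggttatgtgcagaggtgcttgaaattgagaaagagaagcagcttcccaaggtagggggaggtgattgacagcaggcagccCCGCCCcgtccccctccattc
Col6a3: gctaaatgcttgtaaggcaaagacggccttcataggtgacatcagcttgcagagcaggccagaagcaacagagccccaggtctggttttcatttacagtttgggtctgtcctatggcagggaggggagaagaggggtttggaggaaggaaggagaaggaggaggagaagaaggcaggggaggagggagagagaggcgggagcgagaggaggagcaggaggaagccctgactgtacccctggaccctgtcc
The window of Col11a1 held GGGCGG 110 and 19 bases before the start site and CCAAT, on the opposite strand, 79 bases before it. The window of Col4a6 held GGGCGG once, on the opposite strand, 21 bases before the start site, and the window of Col6a3 held none of the 4 motifs. Other chains that changed also had windows without an exon. Among them, Col3a1, which rose, held TATAAA once, and Col5a3, which fell, held CCAAT once and GGGCGG at 2 sites.

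At 6 h no chain was called at a single dose of CBD, and Col11a1 was called when the doses were averaged. For each dose against vehicle, 0 of 24 chains were called (edgeR), where 0.2%, 0.0749%, 0.0999% and 0.05% of all genes were called from the lowest dose to the highest. In the same order, an unadjusted p under 0.05 was found for 3, 3, 2 and 3 chains, beside 8.8%, 7.79%, 7.91% and 7.26% of all genes, and DESeq2 called 1, 0, 1 and 0 chains. For calls by DESeq2, here and below, no share of all genes is given, so they are counts only. With the mean of the 4 doses against vehicle, 1 of 24 chains was called, where 0.749% of all genes were called and 0.241% were called higher. An unadjusted p under 0.05 was found for 5 chains, beside 10.3% of all genes. None of the 24 chains had its 12 CBD libraries all on 1 side of its 3 vehicle libraries, as 1.45% of all genes did.

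Col11a1 had 77.4, 62.1 and 28.2 CPM with vehicle at 6 h. It had 93.4, 120 and 129 CPM at 0.325 µM, 83.0, 95.1 and 101 CPM at 0.75 µM, 75.3, 76.3 and 145 CPM at 1.5 µM, and 99.6, 89.9 and 78.6 CPM at 3 µM. Of the 12 CBD libraries, 10 were above all 3 vehicle libraries, so that the groups overlapped. The log2 fold change of the mean of the doses was 0.86 (SE 0.22, edgeR FDR = 0.0956), and those of the single doses were 1.06, 0.78, 0.86 and 0.72 from low to high, with FDR from 0.122 to 0.540 and no order by dose. Replicate 3 of vehicle weighed on the result, for without it the log2 fold change was 0.50 (FDR = 0.237). Leaving out each library in turn gave 0.50 to 1.18, and the call was lost in 10 of 15 such analyses and with a filter of 10 counts in every library (FDR = 0.110).

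The next chain was Col5a3, with a log2 fold change of −0.53 for the mean of the doses (SE 0.17, edgeR FDR = 0.220). It had 60.3, 44.6 and 101 CPM with vehicle, 39.6, 41.3 and 40.2 CPM at 3 µM and 37.4, 48.7 and 33.6 CPM at 1.5 µM. At 0.75 µM it had 64.3, 67.2 and 64.7 CPM, and at 0.325 µM 43.1, 60.1 and 54.8 CPM. The value leaned on replicate 3 of vehicle, at 101 CPM. The mean of the 12 CBD libraries, 49.6 CPM, lay between the 60.3 and 44.6 CPM of the other vehicle libraries. Col5a3 was called with no filter on low counts (FDR = 0.0784) and when the percentage of reads outside genes entered the fit (FDR = 0.0731). It was also called without replicate 2 of vehicle at 6 h (FDR = 0.0698), which keeps replicate 3, and where Col11a1 was not (FDR = 0.183). Col6a1 (−0.28), Col6a3 (−0.23) and Col12a1 (0.31) had unadjusted p under 0.05 and were not called. By class, the median log2 fold change of the mean of the doses was 0.03 in fibrillar chains, 0.22 in type 4 chains and 0.01 in the others, beside −0.02 over all genes. All 5 type 4 chains tested had positive values, and 0 were called. No chain differed among the 4 doses (0 of 24, 0% of all genes), with 1 chain at an unadjusted p under 0.05 (3.76% of all genes) and 0 called by DESeq2. Likewise 0 of 24 chains differed between 3 µM and the 3 lower doses (0% of all genes), with 1 at an unadjusted p under 0.05 (5.19% of all genes) and 0 by DESeq2.

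At 24 h, no chain was called against vehicle at any dose. Counts were 0 of 25 for each dose, from low to high, and for the mean of the doses (edgeR), where 0.066%, 0.0825%, 0.0413%, 0.00825% and 0.107% of all genes were called. Chains with an unadjusted p under 0.05 numbered 1, 3, 2, 7 and 5, beside 8.33%, 7.63%, 7.34%, 9.16% and 6.73% of all genes, and DESeq2 called 0 in each. None of the 25 chains had the 12 CBD libraries all on 1 side of vehicle (0.611% of all genes). Col11a1, called at 6 h, had 138, 142 and 164 CPM at 0.325 µM, 138, 144 and 128 CPM at 0.75 µM, 122, 106 and 112 CPM at 1.5 µM and 117, 127 and 163 CPM at 3 µM, against 146, 170 and 141 CPM with vehicle. Its log2 fold change for the mean of the doses was −0.21 (SE 0.10, edgeR FDR = 0.752).

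The change of Col11a1 with CBD differed between the times. In a test of that difference over all 30 libraries, 1 of 25 chains was called, where 0.235% of all genes were called and 0.109% were lower, and it was Col11a1 (log2 difference −1.07, SE 0.25, edgeR FDR = 0.0656). The level at 6 h with vehicle was the lowest of the 10 groups, 55.9 ± 25.2 CPM (SD, n = 3), and that at 24 h with vehicle the highest, 152 ± 15.6 CPM (SD, n = 3). Without replicate 3 of vehicle at 6 h the log2 difference was −0.70 (FDR = 0.355). The call was lost in 10 of 30 analyses that left out a library, among them each of the 3 vehicle libraries of 24 h (FDR = 0.149 to 0.205). Over the 25 chains, 20 had a negative difference, with a median of −0.16 beside 0.02 over all genes.

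At 24 h and 3 µM, 20 of 25 chains were below vehicle, with a median log2 fold change of −0.23 beside 0.01 over all genes, although none passed the threshold. The medians were −0.26 in fibrillar chains, −0.19 in type 4 chains and −0.22 in the others. At 0.325, 0.75 and 1.5 µM, 13, 14 and 19 chains were below vehicle, with medians of −0.03, −0.04 and −0.07. All 4 doses were compared with the same 3 vehicle libraries. Without replicate 1 of 3 µM, the library low in most chains, the median at 3 µM was −0.10 and 17 of 25 were below vehicle.

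Col3a1 had the smallest p at 3 µM. It had 328, 469 and 435 CPM at 3 µM, 514, 474 and 555 CPM at 1.5 µM, 537, 495 and 439 CPM at 0.75 µM, 575, 528 and 468 CPM at 0.325 µM and 608, 498 and 587 CPM with vehicle. All 3 libraries of 3 µM were thus below all 3 of vehicle, and the log2 fold change was −0.45 (SE 0.13, edgeR FDR = 0.411). Without replicate 1 of 3 µM it was −0.32 (FDR = 0.875), and without replicate 2 it was −0.56 and was called (FDR = 0.0476). Col8a1 had 367, 447 and 432 CPM at 3 µM and 577, 531 and 473 CPM with vehicle, again with no overlap (log2 fold change −0.34, edgeR FDR = 0.507, and −0.26 without replicate 1 of 3 µM). Others with an unadjusted p under 0.05 were Col1a2 (−0.38), Col6a1 (−0.41), Col6a2 (−0.40), Col16a1 (−0.30) and Col4a4 (−0.93). Col1a1 was not among them, with 2418, 1913 and 2056 CPM at 3 µM and 1870, 1901 and 2186 CPM with vehicle (log2 fold change 0.11). Col1a2, Col6a1 and Col6a2 also had all 3 libraries of 3 µM below all 3 of vehicle, as did the scarce Col2a1. For Col6a1 the nearest libraries had 113.45 CPM at 3 µM and 113.495 CPM with vehicle. How many of all genes did so was not counted, so that these separations cannot be read as a result about the chains.

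Against the 3 lower doses, 3 µM at 24 h called 0 of 25 chains, where 10.5% of all genes were called, and 18 of 25 were lower with a median log2 fold change of −0.22. The 84 tested genes of the pathway lists described below had a median of −0.11, and the median over all genes is not given here. An unadjusted p under 0.05 was found for 6 chains, beside 21.6% of all genes. Col3a1 (−0.29, edgeR FDR = 0.101) and Col8a1 (−0.25, edgeR FDR = 0.109) lay just outside the threshold, and DESeq2 called both. This comparison turned on single libraries. Without replicate 1 of 3 µM, 0 chains and 0.543% of all genes were called, and the median over chains was −0.08, with Col3a1 at −0.17 and Col8a1 at −0.18. Without replicate 2, 6 chains and 18.3% of all genes were called, Col3a1, Col4a6, Col5a1, Col8a1 and Col16a1 lower and Col1a1 higher. In the test of any difference among the 4 doses at 24 h, 0 of 25 chains were called (1.93% of all genes), with 3 at an unadjusted p under 0.05 (14.5% of all genes) and 1 called by DESeq2.

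**Figure D5:**
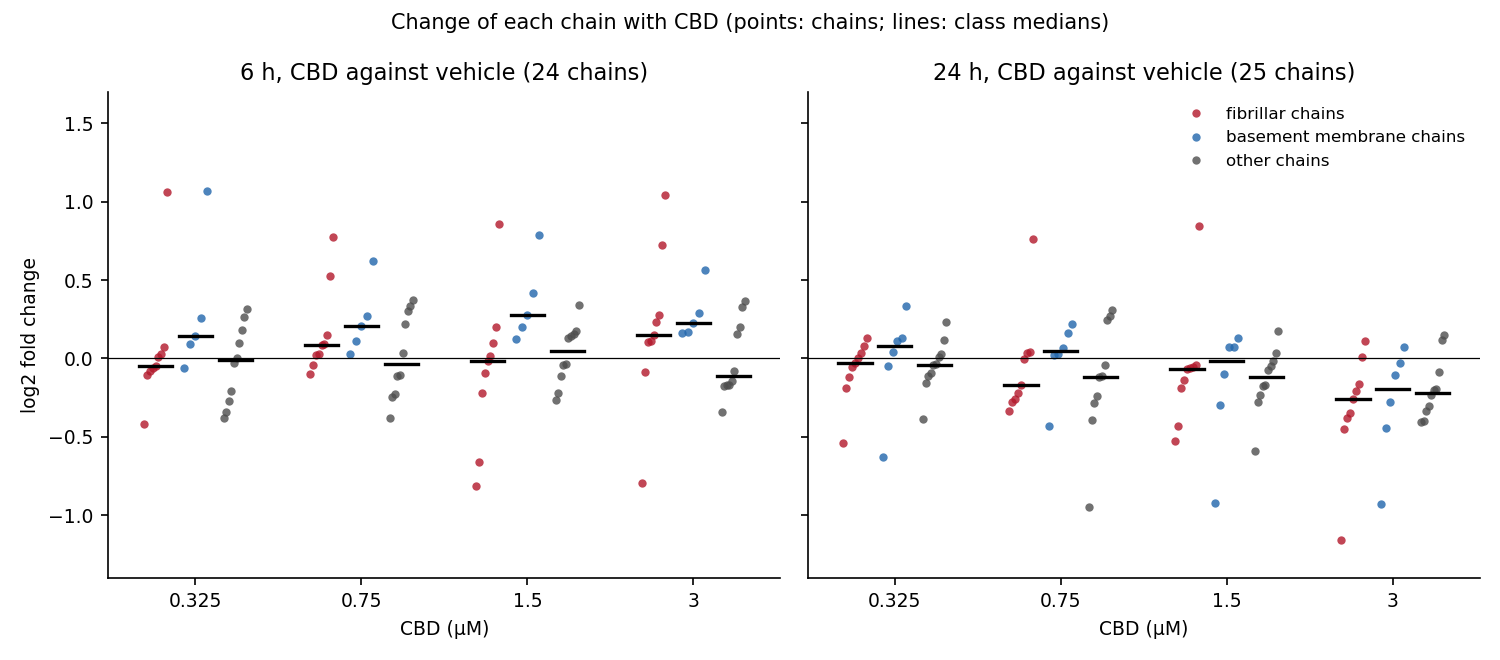
Log2 fold change of each dose against vehicle at 6 h (24 chains) and 24 h (25 chains), each point a chain, red for fibrillar, blue for type 4 and grey for other chains, with lines at the class medians. Medians at 6 h lie between −0.11 and 0.28, and at 24 h those of 3 µM lie between −0.26 and −0.19, with 0 points called at either time for a single dose.

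The genes that process, bind and degrade collagen were counted from lists of the pathway. They add steps that chain levels do not show, since a chain must be hydroxylated, folded, exported, trimmed and cross-linked before it joins the matrix. Over the 5 treatments, 58 of the 86 genes tested in 8 lists were called, 67.4%, 35 of them higher and 23 lower at 24 h, beside 58.9% of all genes (28.4% higher and 30.5% lower). Of 7 cross-linking genes tested, 5 were higher and 0 lower, with a median log2 fold change of 0.36. Lox, which oxidizes lysines to start cross-links, was at 0.68 (SE 0.07), the transglutaminase Tgm2 at 0.58, Loxl3 at 0.51, Loxl1 at 0.36 and the peroxidasin Pxdn, which joins type 4 collagen, at 0.19. With vehicle alone, where 12.5% of all genes were higher and 14.2% lower, 3 of 7 were higher and 0 lower, Lox at 0.87, Loxl1 at 0.72 and Tgm2 at 0.57. Their summed level was 1102 to 1781 CPM at 6 h and 1687 to 2539 CPM at 24 h, with overlap.

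Of 14 fibril binding genes tested, 10 were higher and 2 lower at 24 h over the 5 treatments, beside 28.4% and 30.5% of all genes, with a median of 0.54. Those higher were mainly the small leucine-rich proteins that coat fibrils, with Aspn at 1.90 (SE 0.14), Ogn at 1.19, Fmod at 1.07, Prelp at 0.90, Dcn at 0.74, Bgn at 0.65 and Podn at 0.55. Sparc, which binds collagen, was at 0.52, Emilin1 at 0.49 and fibronectin, Fn1, at 0.18. The thrombospondins Thbs1 (−0.34) and Thbs2 (−0.21) were lower. With vehicle alone 9 of 14 were higher and 0 lower, beside 12.5% and 14.2% of all genes, with a median of 0.83.

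In each of the remaining 6 lists, between 50% and 71.4% of the genes tested were called over the 5 treatments, near the 58.9% of all genes, and in both directions. Of 17 genes for folding and modification, 6 were higher and 5 lower over the 5 treatments. P4ha3 (0.51), P3h4 (0.41), P3h1 (0.35), P3h3 (0.35), Plod2 (0.26) and the collagen chaperone Serpinh1 (0.16) were higher. Tmem38b (−0.73), Plod3 (−0.36), P4hb (−0.33), Pdia6 (−0.33) and Colgalt1 (−0.28) were lower. Hydroxylases of lysine thus stood on both sides, Plod2 higher and Plod3 lower, while the P4ha and P3h genes called were all higher.

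Of 10 export genes, 2 were higher (Preb at 0.25 and Sec23a at 0.24) and 4 lower (Sec13 at −0.57, Sec24d at −0.56, Mia2 at −0.46 and Mia3, the receptor for bulky procollagen, at −0.15). Of 7 genes for propeptide removal, Adamts2, which trims the amino end of fibrillar chains, was higher at 0.88, as was Pcolce at 0.14, and Tll1 (−1.18), Adamts14 (−0.86) and Furin (−0.41) were lower. Of 10 basement membrane partners, Agrn (1.17) and perlecan, Hspg2, (0.38) were higher and Tinagl1 (−0.67), Lamc1 (−0.39) and Fbln1 (−0.16) lower. Of 8 receptors, Itga1 (0.95), Mrc2 (0.85), Antxr1 (0.56) and Ddr1 (0.12) were higher and Cspg4 (−0.33) was lower.

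Of 13 degradation genes, 4 were higher and 5 lower over the 5 treatments. The collagenase Mmp13 was at 1.15, Mmp16 at 0.48, Mmp3 at 0.31 and Mmp14 at 0.13. Mmp10 (−1.39), the cathepsin Ctsl (−0.88), the inhibitors Timp3 (−0.86) and Timp1 (−0.82) and the gelatinase Mmp2 (−0.57) were lower. Enzymes were therefore on both sides, and both inhibitors called were lower. Timp2, at 3048 CPM the most abundant of the listed inhibitors, was not called.

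The lists were chosen with earlier results of these data known, and the study names Mmp3, Mmp13 and Timp1 as altered by CBD. Shares over the lists with CBD are therefore no test of enrichment. With CBD at 6 h, 5 of 86 genes tested in these lists were called for the mean of the 4 doses, 5.81% beside 0.749% of all genes. They were Itga1, a subunit of a collagen receptor (1.36, SE 0.31, edgeR FDR = 0.0493), the stromelysin Mmp3 (0.82, SE 0.12, edgeR FDR = 0.00171), Emilin1 (0.79, edgeR FDR = 0.0762), Timp1 (0.53, edgeR FDR = 0.0187) and the laminin chain Lamc1 (−0.48, edgeR FDR = 0.0744). None of the genes for folding, export, propeptide removal or cross-linking was called there, out of 17, 10, 7 and 7 tested, with 3, 1, 1 and 2 at an unadjusted p under 0.05, beside 10.3% of all genes. Without replicate 3 of vehicle at 6 h, 3 of 86 were called, Mmp3, Timp1 and Mmp13, which are the genes the study names. No share of all genes is given for that setting. At 24 h, 1 of 84 genes of the lists was called for the mean of the doses, Mmp13 (0.65, SE 0.13, edgeR FDR = 0.0443), where 0.107% of all genes were called, with 0.86, 0.78 and 0.79 at 0.325, 0.75 and 1.5 µM and 0.17 at 3 µM (edgeR FDR = 0.777 at that dose).

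Against the lower doses at 24 h, 3 µM had 10 of 84 genes of the lists called, 11.9% beside 10.5% of all genes. Mmp2 (1.11) and Furin (0.59) were higher. P4ha3 (−0.67), Mmp13 (−0.64), Tfg (−0.55), Sec23a (−0.46), Mmp3 (−0.46), periostin, Postn, (−0.43), the integrin subunit Itgb1 (−0.42) and Thbs2 (−0.32) were lower. Without replicate 1 of 3 µM, 1 of 86 was called, Mmp13, and 0 of 84 were called when the percentage of reads outside genes entered the fit, with 11 at an unadjusted p under 0.05.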

How the data were processed

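RNA of the 30 libraries was sequenced single-end from the 3′ end. The authors trimmed reads with Flexbar, aligned them to GRCm39 with STAR 2.7.5c and deposited raw read counts per Ensembl gene from HTSeq 1.99.2, with no normalization. The share of reads outside genes came from rows that name no gene, which were left out of library sizes and tests. Symbols came from GENCODE M21 (GRCm38), so positions are those of GRCm38, and 52000 of 56941 identifiers matched. Counts were tested with edgeR 4.0.16 in R 4.3.3 (filterByExpr on groups, minimum count 10, TMM, quasi-likelihood F-test, FDR threshold 0.1 as in the study), in one fit for 6 h, one for 24 h and one for both, each checked on simulated data, where false calls at 6 h ran above the FDR threshold and small changes were often missed. DESeq2 1.42.0, other scaling and filters, fewer libraries and a covariate were alternatives. Chains called in any comparison and the 3 most abundant of each class were named with values by library, or as lowest, median and highest over more than 5 libraries, and listed pathway genes when called. Members, lists and the comparison of 3 µM with lower doses were chosen with earlier results of these data known. Nothing said whether replicates were separate cultures, so p-values measure only the spread between these libraries, which may be technical.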

Additional observations from a re-analysis of the deposited data

Results flagged for a closer look

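The change with CBD, as the mean of the 4 doses against vehicle, was compared between 6 h and 24 h over the 30 libraries. The difference was called for Col11a1, 1 of 25 chains tested, and for 2 of 86 tested genes of the pathway lists (edgeR FDR = 0.0656 for each). Over all genes, 0.235% were called. For Col11a1 the log2 difference was −1.07 (SE 0.25), from 0.86 at 6 h to −0.21 at 24 h. For Itga1, the collagen receptor subunit, it was −1.44 (SE 0.32), from 1.36 at 6 h (FDR = 0.0493) to −0.07 at 24 h (FDR = 0.978). For Thbs2, a matrix thrombospondin, it was −0.67 (SE 0.16), from 0.36 at 6 h (FDR = 0.230) to −0.31 at 24 h (FDR = 0.509). The same vehicle libraries stand in all 3 differences. Without replicate 3 of vehicle at 6 h, Col11a1 lost this call, and Itga1 was not called at 6 h.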

How the results depend on the processing

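Of 29 calls of single chains, tried in 1007 settings, 940 kept direction and call, 67 kept the direction and lost the call and 0 reversed. All 775 mean levels of chains tried stayed within 1 SD of a group. Most of these settings left out 1 of 30 libraries, which can hardly move such a mean, so they do not show that levels are robust. With vehicle, 9 to 12 chains were called over time, and over the 5 treatments 12 to 16. Counts of chains called with CBD moved more. Where no share of all genes stands beside such a count, it cannot show whether more chains or more genes in general were called. At 6 h, without the filter on low counts, they were 1, 1, 2 and 2 from 0.325 to 3 µM and 2 for the mean of the doses, and the same 1, 1, 2, 2 and 2 when the fit carried the percentage of reads that lay outside genes. DESeq2 called 1 at 0.325 µM and 1 at 1.5 µM, and a filter of 10 counts in every library left 0 for the mean of the doses. At 24 h with no filter, 1 chain was called for 3 µM against vehicle, 1 for any difference among doses and 1 for 3 µM against the lower doses. For any difference DESeq2 called 1. For 3 µM against the lower doses RLE scaling called 1, and the filter of 10 counts, the libraries compared alone and DESeq2 each called 2. The fit with reads outside genes called 0 chains there and 0.248% of all genes.

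Leaving out 1 library in turn gave 0 to 1 chain for 0.325 µM and for the mean of the doses at 6 h, 0 to 1 for 3 µM against vehicle at 24 h, 0 to 2 for any difference at 24 h, 0 to 6 for 3 µM against the lower doses at 24 h and 0 to 1 for the difference between times. Without replicate 1 or replicate 3 of 3 µM at 24 h, any difference among doses fell from 1.93% of all genes to 0.152% and 0.0715%. The libraries compared alone could not be an alternative where a comparison already used every library of its fit. No paired analysis was possible because no label numbers the replicates of a group, and the numbers used here follow accession order alone. Counts for the pathway lists without the libraries that stood apart, and with reads outside genes in the fit, were chosen after seeing the data. At this depth the 19 chains below the filter were not tested, and the cause of the calls lost was not tested.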
